A study of Mus musculus with 8 samples.

Results

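The D cyclins (Ccnd1, Ccnd2 and Ccnd3), the kinases they activate (Cdk4 and Cdk6) and 4 inhibitors of cyclin-dependent kinases (Cdkn2a, Cdkn2b, Cdkn1a and Cdkn1b) were examined for chromatin accessibility in mouse melanoma cell lines. A region belonged to a gene when it lay inside the gene (GRCm38) or within 50 kb of it with that gene as the nearest protein-coding gene end. By this rule 90 of the 148664 regions of the count table belonged to the 9 genes, 13 to Cdkn2a, 6 to Cdkn2b, 9 to Cdkn1a, 8 to Cdkn1b, 9 to Ccnd1, 9 to Ccnd2, 16 to Ccnd3, 1 to Cdk4 and 19 to Cdk6. After a filter on low counts 88 remained, with 1 weak region of Cdkn2a and 1 of Cdk6 left out. A peak call of at least 1 library covered 82 of the 90 regions, and 11 had a peak in all 8 libraries.

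The study used ATAC-seq, an assay that tags open DNA with adapters by the Tn5 transposase, on 50000 cells per reaction. Lines 112 and 113 carried the genotype written as Stat3∆ and labelled STAT3 knockout, and lines 119 and 73 the genotype written as Stat3fl and labelled wild type. STAT3 is a transcription factor that cytokine receptors switch on through Janus kinases. All 4 lines came from lymph nodes of diseased mice, whose cutaneous melanoma appeared at around 25 to 30 weeks of age, and each line was a pool of cells that the labels also call a clone. Every line gave 2 libraries. The allele that drove the tumours, the promoter of the Cre and any engineered change at Cdkn2a are not given in the sources used here. Each title has a p number that the labels do not explain, 18 and 44 for lines 112 and 113 and 14 and 68 for lines 119 and 73.

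D cyclins bind and activate Cdk4 and Cdk6, which phosphorylate the retinoblastoma protein and release E2F factors, so that cells enter S phase. The proteins p16Ink4a of Cdkn2a and p15Ink4b of Cdkn2b bind Cdk4 and Cdk6 and keep them from D cyclins. Cdkn1a (p21) and Cdkn1b (p27) bind complexes of cyclins with their kinases. Cdkn2a encodes a pair of unrelated proteins from separate first exons, p19Arf from the upstream start, which protects p53 from Mdm2, and p16Ink4a from the downstream start. Loss of the Cdkn2a locus is among the most common lesions of melanoma.

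Total counts ranged from 2697546 to 7464336 per library, with line 112 replicate 2 the lowest. Levels are given in CPM, counts scaled to an effective library size of 1000000, and the level of a locus is the sum over all regions of the gene. Of the markers of other cells in a lymph node, 0 of 3 endothelial genes and 1 of 3 T cell genes had a region, the latter with 0.333 to 3.36 CPM. Ms4a1, a gene of B cells, had 0.9 to 4.97 CPM, and Cd79a had no region. Of the myeloid genes Spi1 had 9.62 to 20.5 CPM, while Ptprc and Csf1r had no region. Melanocyte markers had a region at 7 of 7 genes, with summed levels of 123 to 159 CPM in line 112, 220 to 248 CPM in line 113, 73.6 to 83.1 CPM in line 119 and 120.4 to 122 CPM in line 73. Of these, Dct, Mlana, Tyr and Tyrp1 were at 0 to 4.85 CPM in the wild-type libraries. Sox10 was at 2.53 and 3.57 CPM in line 73. The sum of line 73 thus came mostly from Mitf and Pmel, with means of 38.7 and 73.8 CPM. It is not like that of line 112 in its members, although the sums are close. In the knockout libraries Dct had 20.4 to 68.8 CPM, Tyr 13.996 to 22.3 CPM, Mlana 8.89 to 11.5 CPM and Tyrp1 4.87 to 18.7 CPM. These genes thus divided the libraries by genotype, while Mitf and Pmel did not. The genotype test, with the line as the unit, gave them edgeR adjusted p of 0.1406 to 0.2096 for Dct, Tyr, Mlana and Tyrp1. How far this difference enters the comparisons of genotypes was not tested. The Pmel region lies close to an end of Cdk2 (128697938 on chromosome 10), and signal there cannot be assigned to either gene. The fibroblast markers summed to 32.6 to 45.2 CPM in lines 112, 113 and 119 and to 83.0 to 85.4 CPM in line 73, but its members differed. Pdgfra had 8.22 to 19.2 CPM in the knockout and 0.76 to 1.83 CPM in the wild-type libraries, and Pdgfrb 3.15 to 6.001 against 11.9 to 48.9 CPM. Stat3 itself had 17.98 to 38.5 CPM at its end in every library, so this region does not check the labels. At Ddx3y, a gene of chromosome Y, the 4 knockout libraries had 0 counts and the wild-type libraries 10.97 to 19.2 CPM, so the genotypes cannot be told apart from the absence and presence of this signal.

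The Cdkn2a and Cdkn2b genes lie side by side on chromosome 4, Cdkn2a from 89274473 to 89294619 and Cdkn2b from 89306289 to 89311032. The locus was open in all 4 lines. The regions at both Cdkn2a starts and at the Cdkn2b start each had a peak in 8 of 8 libraries. By CPM, not set per length, the strongest part of the locus in 3 of the 4 lines was the region over the upstream, Arf start, and in line 73 the region over the downstream, Ink4a start.

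Their promoters are shown because these starts carried most of the signal of the locus. The sequences are those of RefSeq (GRCm38.p6), 300 bases each and mostly before the start, with motif matches in capitals. The first is the Arf start of Cdkn2a (chr4:89294570-89294869, minus strand), the next the Ink4a start (chr4:89282143-89282442, minus strand) and the last the start of Cdkn2b (chr4:89310983-89311282, minus strand).
Cdkn2a upstream start: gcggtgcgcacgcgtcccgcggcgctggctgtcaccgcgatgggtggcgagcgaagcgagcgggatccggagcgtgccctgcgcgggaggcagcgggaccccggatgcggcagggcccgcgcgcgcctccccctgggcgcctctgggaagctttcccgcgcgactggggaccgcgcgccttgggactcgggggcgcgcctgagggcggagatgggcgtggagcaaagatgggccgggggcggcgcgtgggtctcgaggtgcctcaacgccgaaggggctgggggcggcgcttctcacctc
Cdkn2a downstream start: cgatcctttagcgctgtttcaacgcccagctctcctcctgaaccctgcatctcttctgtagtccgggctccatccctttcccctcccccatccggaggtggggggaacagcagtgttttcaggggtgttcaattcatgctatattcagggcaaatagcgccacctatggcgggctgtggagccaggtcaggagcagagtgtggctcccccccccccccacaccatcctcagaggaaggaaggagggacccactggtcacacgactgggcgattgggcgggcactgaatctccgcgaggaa
Cdkn2b start: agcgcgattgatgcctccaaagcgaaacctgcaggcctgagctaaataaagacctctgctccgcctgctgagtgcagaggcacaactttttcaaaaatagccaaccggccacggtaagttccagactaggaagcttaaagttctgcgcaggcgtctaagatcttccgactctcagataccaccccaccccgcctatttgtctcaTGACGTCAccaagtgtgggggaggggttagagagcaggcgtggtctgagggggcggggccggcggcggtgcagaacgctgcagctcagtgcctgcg

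The Arf promoter held 45 CpG dinucleotides and 77% G or C, the Ink4a promoter 12 and 60.3%, and that of Cdkn2b 18 and 57.7%, against medians of 7 and 52.7% over 32851 mouse promoters. The capitals in the Cdkn2b sequence mark a CRE motif, TGACGTCA, 46 bp before the start, which 1.79% of all promoters hold. The other motifs searched on both strands were AP-1 (TGANTCA), an E-box (CACGTG), E2F (TTTCGCGC or TTTGGCGC), STAT (TTCNNNGAA), C/EBP (TTGCNNAA), TCF (TTCAAAG) and ETS (CCGGAAGT). They occur in 7.81%, 7.15%, 0.323% or 0.514%, 8.30%, 10.8%, 5.14% and 3.89% of promoters, and none is in these 3 windows.

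The summed level of the Cdkn2a locus was highest in knockout line 113 and lowest in knockout line 112. It was 75.7 and 52.6 CPM in the libraries of line 112, 191 and 172 CPM in line 113, 99.98 and 98.6 CPM in line 119 and 112 and 94.9 CPM in line 73. The 4 lines thus ordered as 112, 119, 73 and 113, with the knockout lines at the ends and the wild-type lines between them. The wild-type neighbours in this order did not differ beyond their spread (log2 difference of line 119 to line 73 -0.06, standard error 0.14, edgeR adjusted p 0.734), and their order turned with the scaling.

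Line 113 exceeded each of the other lines at Cdkn2a. The log2 difference was 0.87 to line 119 (standard error 0.14, edgeR adjusted p 4.84e-08), 0.81 to line 73 (standard error 0.14, adjusted p 6.11e-07) and, written as line 112 to line 113, -1.49 (standard error 0.15, adjusted p 7.52e-15). These pairs compare 2 libraries with 2 and thus lines, not genotypes. The labels call the libraries biological replicates and do not say whether they came from separate cultures. Line 112 was below line 119 by a log2 difference of -0.62 (adjusted p 3.00e-04, edgeR) and below line 73 by -0.67 (adjusted p 8.03e-05). The median over all 17771 loci was itself shifted in these pairs, by 0.40 for line 113 to 119, -0.02 for 113 to 73, -0.33 for 112 to 113, 0.04 for 112 to 119 and -0.37 for 112 to 73. When the scaling was set so that this median lay near 0, the difference of line 112 to line 73 was -0.31 with an edgeR adjusted p of 0.0553. It was also lost with DESeq2 (-0.31, adjusted p 0.088) and over regions within 1 kb of the gene ends, where it was -0.03 (edgeR adjusted p 0.889). Those regions leave out the Ink4a start. The other 4 calls held in all 17 alternatives.

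At Cdkn2b, which encodes p15Ink4b, line 113 again stood above the rest. The summed level was 39.2 and 28.3 CPM in line 112, 93.8 and 79.5 CPM in line 113, 42.5 and 36.8 CPM in line 119 and 35.2 and 26.1 CPM in line 73. Line 113 did not overlap the other 3 lines, line 112 overlapped lines 119 and 73, and line 119 lay above line 73. The log2 difference was 1.124 to line 119 (standard error 0.15, edgeR adjusted p 1.43e-10), 1.49 to line 73 (standard error 0.16, adjusted p 5.53e-14) and -1.34 for line 112 to 113 (standard error 0.16, adjusted p 1.67e-11). The place of line 112 depended on the scaling and on single libraries. It was not distinguished from line 119 (log2 difference -0.22, adjusted p 0.281, edgeR) or line 73 (0.15, adjusted p 0.472). It passed above line 73 with edgeR under the scaling over genes (0.52, adjusted p 0.0139), under total counts (0.47, adjusted p 0.0229) and without line 112 replicate 2 (0.43, adjusted p 0.0416), and with DESeq2 (0.51, adjusted p 0.0382). It passed below line 119 without line 112 replicate 1 (-0.49, edgeR adjusted p 0.0413). Line 119 passed narrowly against line 73 (log2 difference 0.37, edgeR adjusted p 0.0438), where the median of all loci was -0.43. That call was lost in 6 of 17 alternatives, with an edgeR adjusted p of 0.0702 over regions with a peak, 0.299 over regions within 1 kb of the gene ends, 0.0585 and 0.0589 without replicate 1 or 2 of line 113, 0.137 without line 119 replicate 1 and 0.469 without line 73 replicate 2. The difference grew to 0.78 under the scaling over genes (adjusted p 1.67e-04) and 0.79 with DESeq2.

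**Figure D1:**
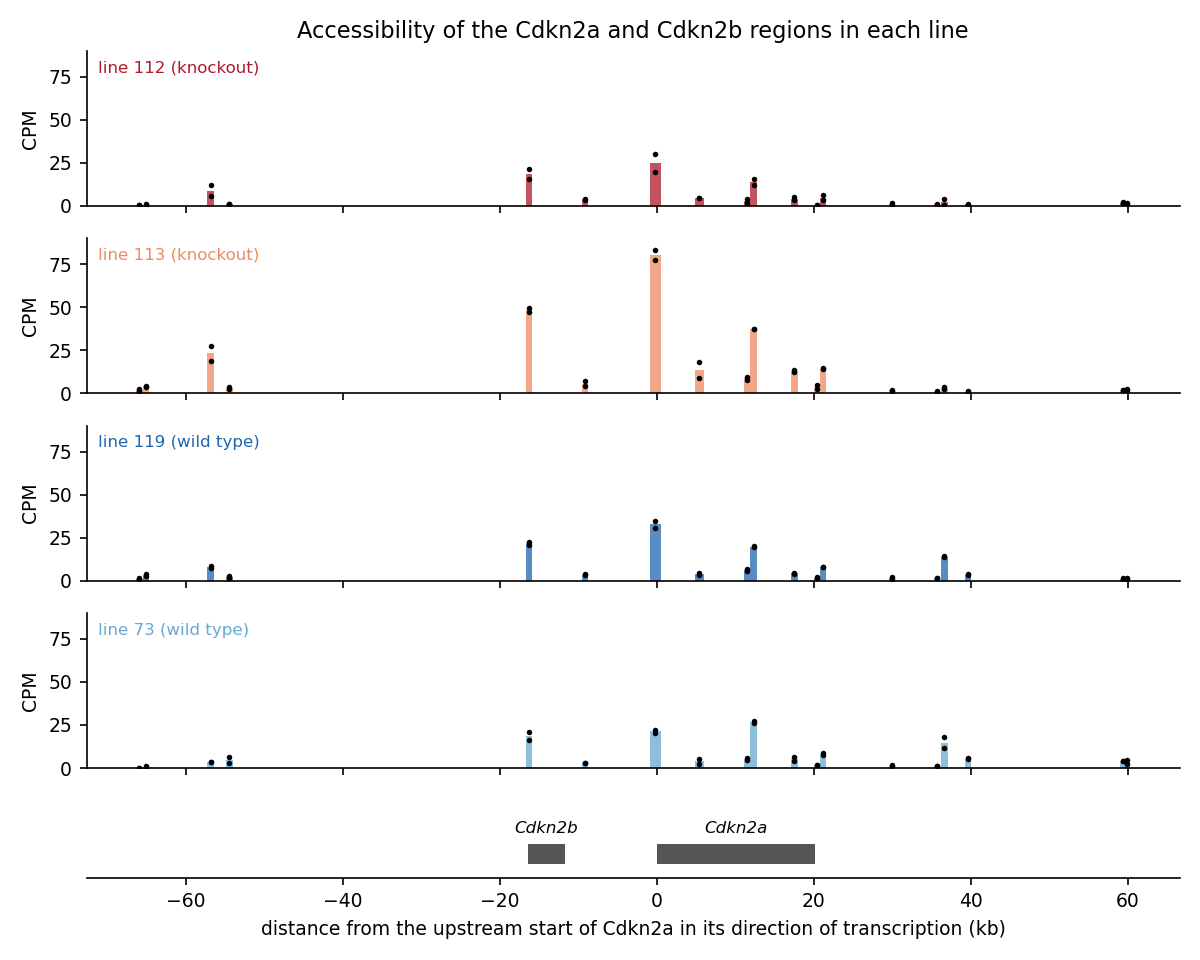
Accessibility in CPM (vertical axis) of each region of Cdkn2a and Cdkn2b against its distance in kb from the upstream start of Cdkn2a, 1 panel per line. Bars are the mean of 2 libraries, drawn as wide as the region but at least wide enough to be seen, points are the libraries and grey boxes the genes. The bar at the upstream start reaches 80.5 CPM in line 113 against 21.5 to 32.6 CPM in the other lines.

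At the Arf start (89294118 to 89295473) the levels were 30.2 and 19.5 CPM in line 112, 83.5 and 77.6 CPM in line 113, 34.4 and 30.8 CPM in line 119 and 22.3 and 20.6 CPM in line 73. They rest on 64 to 371 counts per library. The region was higher in line 113 than in line 119 by a log2 difference of 1.30 and than in line 73 by 1.91 (edgeR adjusted p 3.59e-09 and 5.27e-13). It was also higher in line 119 than in line 73 (log2 difference 0.61, edgeR adjusted p 0.00653).

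At the Ink4a start (89281932 to 89282617) line 113 was again the highest, by a smaller margin over line 73. The levels were 15.7 and 12.2 CPM in line 112, 37.3 and 37.2 CPM in line 113, 19.9 and 19.5 CPM in line 119 and 27.4 and 26.1 CPM in line 73. The log2 difference of line 113 was 0.92 to line 119 and 0.48 to line 73 (edgeR adjusted p 4.18e-05 and 0.0351), and that of line 112 to line 73 was -0.92 (adjusted p 4.57e-04). A region 4.87 kb inside the gene from the upstream start (89288598 to 89289753) had 17.997 and 9.13 CPM in line 113 and 2.47 to 5.32 CPM in all other libraries.

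At the Cdkn2b start (89310547 to 89311278) the levels were 21.7 and 15.5 CPM in line 112, 49.7 and 47.3 CPM in line 113, 22.7 and 20.5 CPM in line 119 and 20.8 and 16.5 CPM in line 73. Only line 113 differed from the others by the test, with log2 differences of 1.16 to line 119 and 1.38 to line 73 (edgeR adjusted p 4.17e-07 and 4.75e-08). A region 39.97 kb upstream of Cdkn2b (89351000 to 89351914) had 12.0 and 5.78 CPM in line 112, 27.7 and 19.0 CPM in line 113, 8.67 and 7.33 CPM in line 119 and 3.55 and 3.57 CPM in line 73. There the lines ranged over a log2 difference of 2.71, that of line 113 to line 73 (edgeR adjusted p 3.08e-10).

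Downstream of Cdkn2a a pair of regions went the other way and divided the lines by genotype. The region 23.96 kb from the nearer start (89257674 to 89258233) had 3.92 and 0.61 CPM in line 112 and 3.37 and 2.64 CPM in line 113, against 13.5 and 14.3 CPM in line 119 and 17.995 and 11.5 CPM in line 73. Its neighbour 26.9 kb from that start (89254730 to 89255257) had 0.45 to 1.22 CPM in the knockout libraries and 3.33 to 5.77 CPM in the wild-type libraries. At both regions each knockout line was below each wild-type line (4 of 4 pairs), with edgeR adjusted p from 1.18e-07 to 0.00169. With the line as the unit, 2 against 2, the log2 fold changes of knockout over wild type were -2.39 (standard error 0.85, edgeR adjusted p 0.188) and -2.45 (standard error 0.90, adjusted p 0.194), so neither passed. The stronger rests on 2 to 17 counts in a knockout library, and the weaker on 2 to 5. The remaining 8 Cdkn2a and 4 Cdkn2b regions had between 0 and 14.6 CPM in any library.

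The surroundings of the locus were also highest in line 113 but spanned a much smaller range. Over 205 tested regions within 2 Mb of Cdkn2a, with the 9 genes left out, the median log2 ratio to the mean of the 4 lines was -0.05, 0.13, -0.04 and -0.02 for lines 112, 113, 119 and 73. On the same scale the Cdkn2a locus itself was at -0.70, 0.79, -0.07 and -0.02, and the Cdkn2b locus at -0.36, 0.99, -0.13 and -0.50. ATAC-seq of a cell pool does not tell a larger share of open cells from a larger signal per open cell. Line 113 also had the highest melanocyte marker sum, and the part of that in these results was not tested. By the distance of log2 CPM over 8 libraries, the loci most like Cdkn2a among 15054 were Nupl2, Hey1 and Stx18 (distances 0.241, 0.277 and 0.309 in log2 units). They lie on other chromosomes.

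Between genotypes, 0 of the 9 loci passed the threshold with the line as the unit, against 1.59% of 17771 loci, and 0 passed an unadjusted p under 0.05, against 9.9%. Of the 88 regions 0 passed, against 0% of all 140329, and 16 had an unadjusted p under 0.05 (11 higher and 5 lower in the knockout lines), against 16.9% of all regions. The term separated is used for regions at which each knockout line differed from each wild-type line, in 4 of 4 pairs and in 1 direction, at an edgeR adjusted p of 0.05. Among the 88 regions 12 were separated upwards in the knockout lines (13.6%) and 5 downwards (5.68%), against 7.68% and 7.38% of all tested regions. No locus of the 9 was separated, against 4.56% of all loci upwards and 6.72% downwards. The coefficient of variation was 0.573 between lines of a genotype and 0.118 between libraries of a line. Without line 119 or line 73 only 1 wild-type line is left, assumed to vary like the knockout lines. No count of calls is given for those fits. Without line 112 replicate 1 there were 3 regions separated downwards in place of 5.

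**Figure D2:**
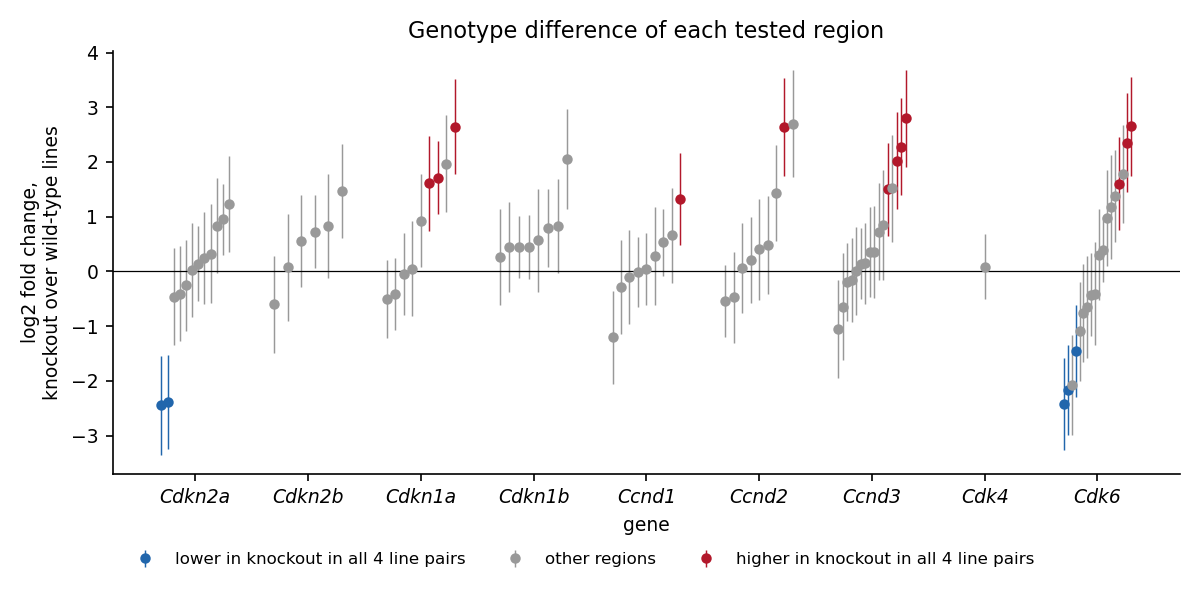
Log2 fold change of knockout over wild-type lines (vertical axis) for each of the 88 tested regions, ordered by value within each gene. Points are estimates and bars 1 standard error, and colours mark the 12 regions higher and the 5 lower in all 4 line pairs. The separated regions sit at Cdkn2a, Cdkn1a, Ccnd1, Ccnd2, Ccnd3 and Cdk6.

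Cdkn1a, a target gene of p53 on chromosome 17 (29090979 to 29100722), had its separated regions upstream of the gene. The strongest, 8.54 kb upstream of the nearer start (29080593 to 29082439), had 38.3 and 32.3 CPM in line 112 and 34.4 and 37.5 CPM in line 113. It had 10.2 and 9.66 CPM in line 119 and 15.7 and 7.42 CPM in line 73, so the genotypes did not overlap. With lines as units the log2 fold change was 1.71 (standard error 0.66, edgeR adjusted p 0.213). At 17.1 kb upstream (29072799 to 29073914) the knockout libraries had 12.9 to 16.3 CPM and the wild-type libraries 1.79 to 2.83 CPM, a log2 fold change of 2.64 (standard error 0.86, edgeR adjusted p 0.165). A weaker region 21.2 kb upstream (29069036 to 29069786) had 10.6 to 14.9 CPM against 1.37 to 5.87 CPM, a log2 fold change of 1.61. The median over the 336 tested regions within 2 Mb of Cdkn1a was 0.22 higher in the knockout than in the wild-type lines on the log2 scale.

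The downstream start of Cdkn1a did not share this pattern. RefSeq gives Cdkn1a a start upstream (chr17:29090729-29091028, plus strand) and a start further downstream (chr17:29093519-29093818, plus strand), whose promoters are shown because only the second lay in a region of the table.
Cdkn1a upstream start: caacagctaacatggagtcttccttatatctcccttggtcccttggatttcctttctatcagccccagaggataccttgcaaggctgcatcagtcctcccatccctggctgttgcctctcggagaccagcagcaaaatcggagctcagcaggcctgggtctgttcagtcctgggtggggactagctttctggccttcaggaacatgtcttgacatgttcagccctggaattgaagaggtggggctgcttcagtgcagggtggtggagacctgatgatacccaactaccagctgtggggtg
Cdkn1a downstream start: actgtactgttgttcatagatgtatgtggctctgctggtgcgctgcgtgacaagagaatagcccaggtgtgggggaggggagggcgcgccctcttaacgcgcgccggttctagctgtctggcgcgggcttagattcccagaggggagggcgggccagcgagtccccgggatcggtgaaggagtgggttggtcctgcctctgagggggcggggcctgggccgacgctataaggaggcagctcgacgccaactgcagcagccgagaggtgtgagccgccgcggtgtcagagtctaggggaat

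The promoter of the upstream start held 2 CpG dinucleotides and overlapped 0 bases of a region, while that of the downstream start held 23 and lay wholly in the region from 29093448 to 29095132. None of the motifs searched is in either window. A weak region 281 bp inside the gene from the upstream start (29091260 to 29091760), with a peak in 1 library, was higher in the knockout libraries (4.27 to 9.69 CPM) than in the wild-type libraries (0.833 to 2.28 CPM). Its log2 fold change was 1.97 (standard error 0.89, edgeR adjusted p 0.273), and 3 of the 4 pairs passed, with line 113 against 73 at an adjusted p of 0.0545. The region over the downstream start had 12.0 and 19.2 CPM in line 112, 47.2 and 39.6 CPM in line 113, 26.1 and 30.8 CPM in line 119 and 56.5 and 42.3 CPM in line 73. Line 112 was the lowest and lay below line 113 by a log2 difference of -1.51 (edgeR adjusted p 3.64e-07) and below line 73 by -1.69 (adjusted p 1.84e-09). The log2 fold change between genotypes was -0.41 (standard error 0.66, edgeR adjusted p 0.837), and it changed sign without line 112 (0.15) or without line 73 (0.02). Summed over 9 regions, the Cdkn1a locus had 123 and 111 CPM in line 112, 169 and 157 CPM in line 113, 83.0 and 91.5 CPM in line 119 and 134 and 104 CPM in line 73.

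Cdkn1b, on chromosome 6 (134920401 to 134925525), was lower in line 119 than in the other lines. The summed level was 226 and 203 CPM in line 112, 175 and 169 CPM in line 113, 84.9 and 84.6 CPM in line 119 and 180.2 and 191 CPM in line 73. Line 119 was below line 73 by a log2 difference of -1.13 (edgeR adjusted p 5.80e-12), where the median of all loci was -0.43. The region over the start (134919978 to 134921428) had 85.9 and 77.0 CPM in line 112, 69.5 and 70.6 CPM in line 113, 34.9 and 33.8 CPM in line 119 and 77.3 and 77.0 CPM in line 73. The region of the gene with the smallest genotype p, 5.43 kb upstream (134914459 to 134914970), had 9.001 and 7.91 CPM in line 112, 2.92 and 3.12 CPM in line 113, and 0.833 to 2.03 CPM in the wild-type libraries. Its log2 fold change was 2.06 (standard error 0.92, edgeR adjusted p 0.267), and it was not separated.

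Cdkn1b and Ccnd2 lie on the same chromosome, which was higher in line 112 as a whole. The median log2 ratio to the mean of the 4 lines over all tested regions of chromosome 6 was 0.57 in line 112, against -0.19 in line 113, -0.38 in line 119 and -0.14 in line 73. Within 2 Mb it was 0.74 in line 112 and -0.53 in line 119 around Cdkn1b (355 regions), and 0.80 and -0.52 around Ccnd2 (375 regions). The Cdkn1b locus itself was at 0.46 and -0.87 in these lines, and the Ccnd2 locus at 0.69 and -0.73. When the median of the surroundings was subtracted, the log2 fold change of knockout over wild type moved from 0.52 to 0.088 at Cdkn1b and from 0.12 to -0.43 at Ccnd2.

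**Figure D3:**
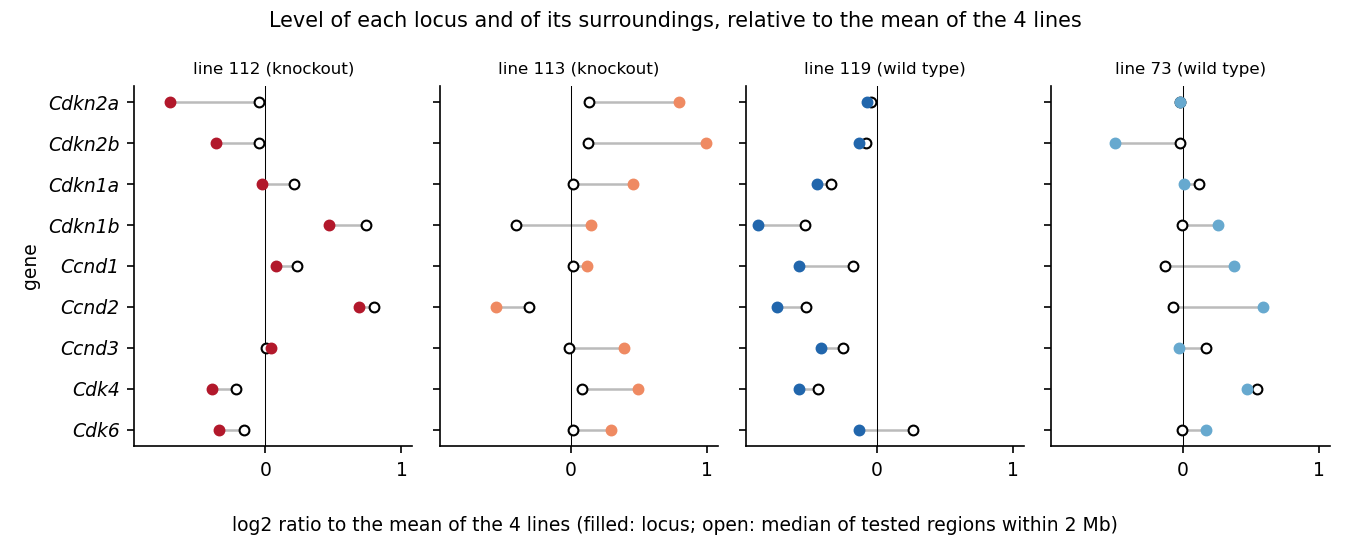
Log2 ratio to the mean of the 4 lines (horizontal axis) of each locus (filled points) and of the median of the tested regions within 2 Mb of it (open points), 1 panel per line. In line 112 the open points of Cdkn1b and Ccnd2 sit at 0.74 and 0.80, while that of Cdkn2a sits at -0.05 with its locus at -0.70.

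Among the D cyclins, Ccnd1 is the cyclin most often amplified in tumours, and it lies on chromosome 7 (144929931 to 144939831). Its summed level was 135 and 119.9 CPM in line 112, 138 and 123 CPM in line 113, 79.6 and 81.6 CPM in line 119 and 165 and 147 CPM in line 73. Line 119 was the lowest, with log2 differences of 0.66 for line 112 to 119, 0.70 for line 113 to 119 and -0.95 for line 119 to 73 (edgeR adjusted p 3.88e-05, 6.89e-06 and 2.99e-09), where the medians of all loci were 0.04, 0.40 and -0.43. The knockout lines were not distinguished (log2 difference -0.04, adjusted p 0.839, edgeR). The locus changed sign between genotypes without line 119, from 0.13 to -0.25.

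At the ends of Ccnd1, whose strand is not given in the sources used here, the region from 144939460 to 144940551 had 24.7 and 19.8 CPM in line 112, 34.6 and 32.0 CPM in line 113, 20.1 and 21.8 CPM in line 119 and 36.2 and 35.2 CPM in line 73. The region beyond the other end (144927519 to 144929908), which had the most counts, lies 840 bp from LTO1, and signal there cannot be assigned to either gene. It had 31.3 to 45.5 CPM in the knockout and 18.8 to 32.2 CPM in the wild-type libraries. The separated region, 15.4 kb beyond the end at 144939831 (144955246 to 144955844), had 4.85 and 5.48 CPM in line 112, 9.22 and 4.81 CPM in line 113, and 2.03 to 2.75 CPM in the wild-type libraries. Its log2 fold change was 1.32 (standard error 0.85, edgeR adjusted p 0.448). The loci most like Ccnd1 over the 8 libraries were Nbeal1, Zfp410 and Tlcd3b (distances 0.124, 0.133 and 0.168 in log2 units).

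Ccnd2, on chromosome 6 (127125162 to 127152188), split the lines across the genotypes. Its summed level was 146 and 159 CPM in line 112 and 143 and 142 CPM in line 73, against 65.5 and 63.2 CPM in line 113 and 56.9 and 56.6 CPM in line 119. Lines 112 and 73 did not differ beyond their spread (log2 difference 0.10, standard error 0.14, edgeR adjusted p 0.551), and neither did lines 113 and 119 (0.18, standard error 0.15, adjusted p 0.270). The knockout lines differed from each other by 1.24 (adjusted p 4.90e-12, edgeR) and the wild-type lines by -1.33 (adjusted p 2.28e-14). The strongest region, 874 bp from the end of the gene at 127152188 (127149023 to 127151314), followed this in part. It had 48.2 and 56.3 CPM in line 112, 24.7 and 21.6 CPM in line 113, 28.2 and 26.5 CPM in line 119 and 82.9 and 80.6 CPM in line 73.

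The separated region of Ccnd2 lay 25.2 kb beyond that end (127177398 to 127178333). It had 36.0 and 30.1 CPM in line 112, 6.07 and 11.8 CPM in line 113, 3.95 and 4.33 CPM in line 119 and 3.55 and 1.37 CPM in line 73. The log2 fold change was 2.64 (standard error 0.89, edgeR adjusted p 0.173), and without line 112 it was 1.35. The Ccnd2 locus changed sign between genotypes also without line 112 (-0.64) and without line 119 (-0.38).

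Ccnd3, on chromosome 17 (47505051 to 47599689), had 4 separated regions, all inside the gene and all higher in the knockout lines. The region from 47559549 to 47560273 had 14.3 and 9.74 CPM in line 112, 17.3 and 17.5 CPM in line 113, 3.06 and 2.00 CPM in line 119 and 2.28 and 0.825 CPM in line 73. Its log2 fold change was 2.79, the highest of the 88 regions (standard error 0.88, edgeR adjusted p 0.157). The regions from 47527387 to 47528011 and from 47521438 to 47522354 had 6.75 to 10.3 and 7.62 to 10.6 CPM in the knockout libraries, against 1.15 to 2.28 and 2.68 to 3.80 CPM in the wild-type libraries. Their log2 fold changes were 2.28 and 1.498 (edgeR adjusted p 0.217 and 0.379). The median over 316 tested regions within 2 Mb was 0.03 higher in the knockout lines on the log2 scale.

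RefSeq also gives Ccnd3 an upstream start (47505051), whose region was not named by the rule and is not described here. The downstream start of Ccnd3 showed no such division. Its region (47593130 to 47593715) had 21.9 and 18.6 CPM in line 112, 40.5 and 38.7 CPM in line 113, 22.3 and 19.7 CPM in line 119 and 33.7 and 32.7 CPM in line 73, with a log2 fold change of 0.14 (standard error 0.65, edgeR adjusted p 0.959). It turned to -0.42 without line 113 and to -0.12 without line 119. Summed over 16 regions the Ccnd3 locus had 153 and 129.6 CPM in line 112, 177 and 183 CPM in line 113, 103 and 103 CPM in line 119 and 137 and 131 CPM in line 73. The order of the lines was 119, 73, 112 and 113, and lines 73 and 112 did not differ beyond their spread (log2 difference of 112 to 73 0.08, edgeR adjusted p 0.633).

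**Figure D4:**
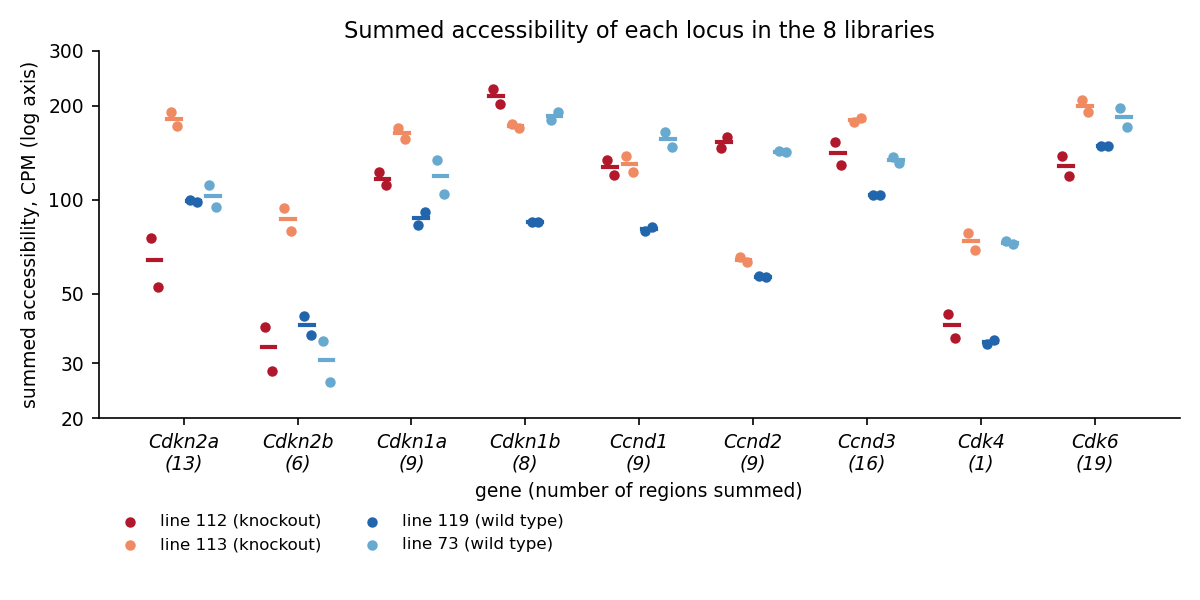
Summed accessibility in CPM on a log axis (vertical) of each of the 9 loci in the 8 libraries (points, coloured by line), with a bar at the mean of each line and the number of regions summed under each gene. Line 113 stands above the other lines at Cdkn2a and Cdkn2b, and lines 112 and 73 stand above lines 113 and 119 at Ccnd2.

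Of the kinases, Cdk4 had a single region, which covered its start on chromosome 10 (127063045 to 127064533) and had a peak in 8 of 8 libraries. It had 43.2 and 36.2 CPM in line 112, 78.3 and 69.2 CPM in line 113, 34.6 and 35.5 CPM in line 119 and 73.8 and 72.0 CPM in line 73. Lines 113 and 73 lay above lines 112 and 119 with no overlap, across the genotypes. The log2 difference was -0.89 for line 112 to 113 and -1.06 for line 119 to 73 (edgeR adjusted p 1.35e-06 and 1.22e-09), where the medians of all loci were -0.33 and -0.43. Within 2 Mb the median of 356 tested regions was -0.21, 0.08, -0.43 and 0.55 for lines 112, 113, 119 and 73, relative to the mean of the lines, and the locus was at -0.39, 0.49, -0.57 and 0.47. The genotype difference of 0.08 became -0.43 without line 113 and -0.33 without line 119.

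The promoters of Cdk4 (chr10:127063285-127063584, plus strand) and Cdk6 (chr5:3343643-3343942, plus strand) are shown because, among the 10 promoters of 7 of the genes in the RefSeq table, they were the ones with an E-box. The capitals mark CACGTG, a palindrome that Myc and MITF family proteins bind.
Cdk4 start: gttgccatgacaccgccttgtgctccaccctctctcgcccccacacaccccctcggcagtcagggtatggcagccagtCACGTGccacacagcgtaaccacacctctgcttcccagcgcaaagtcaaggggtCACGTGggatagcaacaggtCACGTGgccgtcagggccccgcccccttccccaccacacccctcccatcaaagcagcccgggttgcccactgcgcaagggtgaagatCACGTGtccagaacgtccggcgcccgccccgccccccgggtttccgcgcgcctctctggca
Cdk6 start: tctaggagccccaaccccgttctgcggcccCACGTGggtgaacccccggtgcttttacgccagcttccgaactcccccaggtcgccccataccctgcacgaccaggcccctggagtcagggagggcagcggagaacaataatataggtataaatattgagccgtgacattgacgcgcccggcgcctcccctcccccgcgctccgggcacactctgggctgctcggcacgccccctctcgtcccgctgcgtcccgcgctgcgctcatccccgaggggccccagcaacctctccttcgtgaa

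Cdk4 held 4 such matches, 172, 118, 98 and 11 bp before its start, and Cdk6 held 1, 220 bp before its start. A match describes the letters of the window and not binding. Of the other motifs searched, none is in either promoter.

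Cdk6, the longest of the genes (chromosome 5, 3341004 to 3531008), had separated regions in both directions. Its start region (3342070 to 3344755) had 44.8 and 42.6 CPM in line 112, 81.7 and 74.5 CPM in line 113, 32.1 and 34.2 CPM in line 119 and 64.4 and 54.2 CPM in line 73. As at Cdk4, lines 113 and 73 were the higher ones, and all 6 pairs of lines differed (largest edgeR adjusted p 0.0465, for line 112 to 119).

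Regions higher in the knockout lines lay inside Cdk6, 25.1, 55.8 and 110.0 kb downstream of its start. The middle of these (3399681 to 3400636) had 16.6 and 10.3 CPM in line 112, 18.4 and 12.7 CPM in line 113, 4.08 and 4.83 CPM in line 119 and 1.52 and 0.825 CPM in line 73, a log2 fold change of 2.35 (standard error 0.90, edgeR adjusted p 0.210). The region from 3453924 to 3454554 had 5.17 to 11.9 CPM against 0.55 to 1.52 CPM (log2 fold change 2.65), and that from 3369037 to 3369734 had 6.39 to 13.5 CPM against 2.03 to 4.33 CPM (log2 fold change 1.604).

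Regions lower in the knockout lines lay upstream, near the start and far inside the gene. The region 150.4 kb downstream of the start (3494261 to 3494844) had 4.39 and 3.96 CPM in line 112, 2.25 and 3.36 CPM in line 113, 16.7 and 13.2 CPM in line 119 and 24.3 and 20.3 CPM in line 73, a log2 fold change of -2.43 (standard error 0.84, edgeR adjusted p 0.179). The region 41.99 kb upstream (3301016 to 3301907) had 2.47 to 7.16 CPM in the knockout and 15.7 to 25.8 CPM in the wild-type libraries (log2 fold change -2.16). The region 2.19 kb upstream of the RefSeq promoter's start (3341040 to 3341701) lies just inside the gene end at 3341004. It had 3.0005 to 5.48 CPM in the knockout against 7.27 to 17.5 CPM in the wild-type libraries (log2 fold change -1.46). Summed over 19 regions, Cdk6 had 138 and 119 CPM in line 112, 209 and 191 CPM in line 113, 149 and 148 CPM in line 119 and 196 and 171 CPM in line 73. The log2 fold change of the locus was -0.02 (standard error 0.43, edgeR adjusted p 1.00), and its sign turned with the scaling and with the libraries used.

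**Figure D5:**
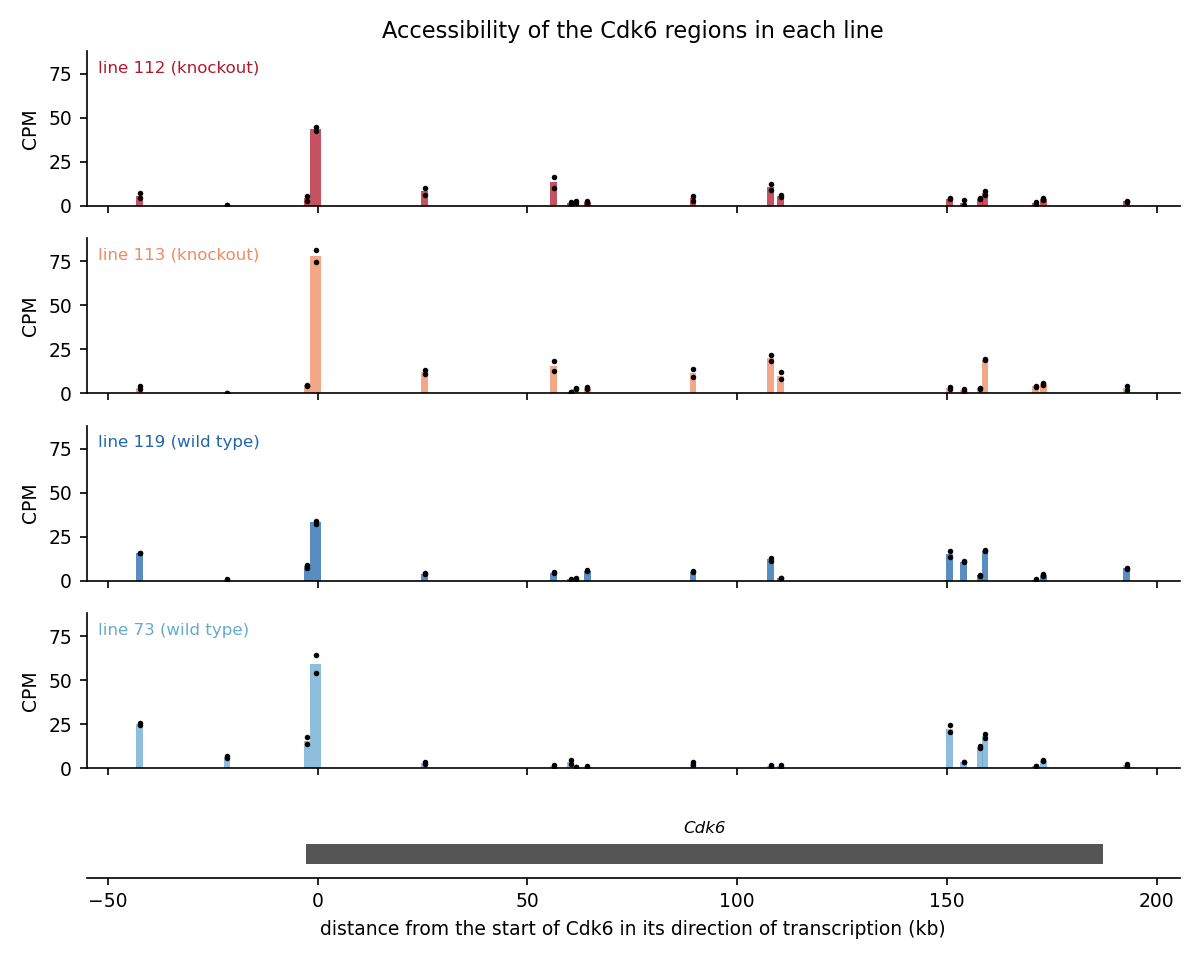
Accessibility in CPM (vertical axis) of each region of Cdk6 against its distance in kb from the RefSeq promoter's start, 1 panel per line, with bars for the mean of 2 libraries, points for the libraries and a grey box for the gene. The region at 150.4 kb reaches 22.3 CPM in line 73 and 14.9 CPM in line 119 but 4.17 and 2.81 CPM in lines 112 and 113, and the region at 55.8 kb shows the reverse.

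The share of regions called between lines was above the background in all 6 pairs, by little for 112 against 73 and for 119 against 73. No test was made of these differences in share. The 88 regions gave 52 calls for line 112 against 119 (background 45.8%), 46 for 112 against 73 (49.9%), 61 for 113 against 119 (59%), 50 for 113 against 73 (52.2%), 32 between the knockout lines (23.8%) and 52 between the wild-type lines (56.9%). As shares of the 88 regions these counts are 59.1%, 52.3%, 69.3%, 56.8%, 36.4% and 59.1%. Of the 9 loci, 6, 3, 8, 5, 8 and 8 passed in the same order of pairs, against 47.2%, 64.1%, 69.1%, 50.2%, 57% and 69.7% of all loci, so that 112 against 73 was the pair below its background. Comparisons that include the same line share its libraries.

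The wider pathway of the retinoblastoma protein was read from a list of 34 other genes with 233 regions, of which 228 were tested. Between genotypes 0 of the 34 loci and 0 of the 228 regions passed, and 0 of the loci had an unadjusted p under 0.05. Of the regions 11 were separated upwards (4.82%) and 12 downwards (5.26%). The median log2 fold change over the regions was -0.10 for this list, 0.34 for the 9 genes and -0.09 for all tested regions. Of the 34 loci 17 were higher in the knockout lines.

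The loci of the list with the smallest p had edgeR adjusted p of 1.00. On the lower side in the knockout lines were Tfdp1, a partner of E2F factors (44.3 ± 10.6 against 64.0 ± 18.2 CPM, mean ± SD of n = 2 lines), E2f7, a repressor of the family (118 ± 23.0 against 161 ± 20.7 CPM), Myc (89.6 ± 11.2 against 122 ± 71.0 CPM) and the phosphatase Cdc25a (91.9 ± 18.7 against 122 ± 17.6 CPM). On the higher side were Cdk2, the kinase of cyclin E (70.8 ± 19.4 against 53.6 ± 25.0 CPM), the Cdk4 and Cdk6 inhibitor Cdkn2c (130.1 ± 48.4 against 104 ± 1.70 CPM), Trp53 (30.6 ± 10.4 against 24.4 ± 11.6 CPM) and E2f2 (43.97 ± 2.54 against 35.3 ± 12.3 CPM). At Cdkn2c line 113 had the highest level, 164 CPM against 95.9, 102 and 105 CPM in lines 112, 119 and 73. Line 113 had the highest mean level at 6 of the 9 genes (Cdkn2a, Cdkn2b, Cdkn1a, Ccnd3, Cdk4 and Cdk6) and at 15 of the 34 genes of the list, and line 73 at 1 and 18. The share over all loci was not computed, so these counts are not read as a trait of the genes. The median over all loci was itself shifted, by 0.40 for line 113 to 119, -0.33 for 112 to 113 and -0.02 for 113 to 73.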

How the data were processed

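The deposited files are a raw count table of 148664 regions by 8 libraries, whose values are whole numbers and which has 0 columns of other samples, and a peak list for each library. Bowtie2 2.2.4, Picard 1.118 and MACS2 2.1.1.20160309 and the builds mm10 and GRCm38 are named in the submitters' processing notes, with no roles. Whether duplicates, fragments or cuts were counted, and any shift for the transposase, is not given in the sources used here. The authors' peak lists give each peak a score, a ratio over the local background, and −log10 values of p and q (lowest −log10 q 1.30), and only peak positions were used here. Coordinates count from 1. Regions were assigned to 21900 protein-coding genes of RefSeq GRCm38.p6, a table without strand. RefSeq promoters with strand covered 7 of the 9 genes (10 promoters), and the others are Ccnd1 and Ccnd2.

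The 140329 regions kept by filterByExpr (minimum count 10, minimum total 15) were scaled by TMM, and CPM use these library sizes, also for counts summed per gene. Genotypes were tested on the sums of each line, 2 against 2, by the robust quasi-likelihood fit of edgeR 4.0.16 in R 4.3.3 (glmQLFit, glmQLFTest). The 6 pairs of lines came from a fit of 8 libraries with a mean per line. Tests were two-sided with Benjamini-Hochberg adjustment over all features and a threshold of 0.05. Standard errors are the fold change over the square root of F. Surroundings used log2 of CPM plus 0.5. Overlap with peaks needed 1 bp (bedtools 2.31.1). The fits were tested on simulated data with spread between libraries but none added between lines. That simulation does not check the genotype test under the spread seen between lines. Alternatives were other scalings, filters, DESeq2 1.42.0, libraries as units, a replicate block, leaving out each library and line, narrower regions and a regional offset.

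The genes, the list of 34 pathway genes and the rules were chosen with earlier results of these data known. Named regions were the strongest within 1 kb of a start (or gene end without strand), those of Cdkn2a and Cdkn2b, up to 3 separated regions per direction and gene by the largest p over the 4 pairs, and otherwise the region with the smallest p. The Ccnd1 region at 144939460 and the Cdkn1a region at 29091260 were chosen after their values were seen, as were the locus tests between pairs of lines and the scaling over genes. For the list, up to 4 genes per direction with the smallest p were named. Likeness was the Euclidean distance of centred log2 CPM over 8 libraries, among loci of at least 10 CPM. The result of 1 marker gene is not reported here.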

Additional observations from a re-analysis of the deposited data

Results flagged for a closer look

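In the separated region of Ccnd1 (144955246 to 144955844), line 113 replicate 1 had 9.22 CPM. The rest of the knockout libraries had 4.81 to 5.48 CPM. Among 100 sets of 4 libraries, from 50 loci and regions, this was the 1 set with a library so far from its group, and chance alone flags about 1 set in 20.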

How the results depend on the processing

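The count of 0 loci called between genotypes held in all 22 alternatives. For the regions, the count of 0 became 6 with DESeq2's Wald test, 22 with the 8 libraries as units and 18 with these units and a replicate block, and ranged from 0 to 15 when a library or line was left out. The libraries as units take the difference between lines as replicated. With the filter of a mean of at least 50 counts, which tests fewer regions, 2 regions were separated upwards and 2 downwards. How many regions of the genes this filter kept is not given here. Within 10 kb 2 were separated downwards. Leaving out a library gave 8 to 11 upwards and 3 to 5 downwards. The same filter left 14, 18, 22, 14, 16 and 19 region calls in the pairs of lines (112 against 119, 112 against 73, 113 against 119, 113 against 73, 112 against 113, and 119 against 73). DESeq2 gave 34 for 112 against 119, and regions within 10 kb gave 33 for 113 against 73 and 34 for 119 against 73. Calls without 1 library ranged from 36 to 51, 39 to 48, 44 to 62, 39 to 55, 25 to 35 and 35 to 55 in the order above.

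Of the loci, 112 against 73 gave 6 calls under the scaling over genes and under DESeq2, 7 under total counts and 3 to 6 without a library. The pair 113 against 73 gave 3 to 6 without a library, 112 against 113 gave 5 with regions within 1 kb and 5 to 8 without a library, and 119 against 73 gave 5 under total counts and 4 to 8 without a library. The level of Cdkn2a moved by more than the spread of the libraries in line 113 (164.7 CPM under total counts, 161 CPM under the scaling over genes), in line 119 (103.7, 104 and 114 CPM under DESeq2 size factors, total counts and the scaling over genes, and 96.0 CPM over regions with a peak) and in line 73 (89.4 CPM under the scaling over genes), and that of Cdkn2b in line 119 (45.6 CPM under the scaling over genes).

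The log2 fold change between genotypes, at 0 calls throughout for these loci, changed sign at Cdkn2a (-0.64 without line 113) and Cdkn2b (-0.061 without line 113), where it ranged up to 0.81 and 1.25 over the libraries or lines left out. It did so at Ccnd1 (-0.25 without line 119, -0.15 with the regional offset, up to 0.65 without line 73), at Ccnd2 (-0.53 with regions within 1 kb, -0.64 and -0.38 without lines 112 and 119, -0.43 with the regional offset, up to 0.88 without line 73) and at Cdk4 (-0.43 and -0.33 without lines 113 and 119, up to 0.67 without line 73). At Cdk6, near 0, it became -1.46 with regions within 1 kb, which leave out the region at the RefSeq start, 0.026 under total counts, 0.19 with the regional offset, 0.24 and 0.11 without lines 112 and 73, and -0.37 to 0.24 over all libraries or lines left out, of which line 112 replicate 2, line 113 replicate 2 and line 73 replicate 1 gave 0.0084, 0.0048 and 0.013. The limit of 1 kb gave 1.98 at Cdkn1a, from 0.44, where it keeps only the weak region at 29091260. The regional offset gave 0.088 at Cdkn1b, from 0.52. Among start regions it changed sign without line 113 at Cdkn2a (-0.11), Cdkn2b (-0.11), Ccnd3 (-0.42), Cdk4 (-0.43) and Cdk6 (-0.086), without line 119 at Ccnd3 (-0.12) and Cdk4 (-0.33), without line 73 at Cdkn1a (0.02) and Ccnd2 (0.41), and without line 112 at Cdkn1a (0.15). The other ends of these ranges were 1.52, 1.22, 0.52, 0.67 and 0.85 for the start regions of Cdkn2a, Cdkn2b, Ccnd3, Cdk4 and Cdk6, and -1.38 and -1.23 for those of Cdkn1a and Ccnd2. The Cdkn2a difference of lines 119 and 73 became 0.044 under DESeq2 size factors, 0.35 under the scaling over genes, 0.14 under total counts and 0.36 under DESeq2. It was 0.43 with regions within 1 kb, which leave out the Ink4a start, and ranged from -0.17 to 0.11 without a library. The Cdkn2b difference of lines 112 and 73 ranged from -0.12 to 0.43 without a library. The cause was not tested, except that fewer samples or regions enter where these are left out. The calls of line 113 over the other lines at Cdkn2a and Cdkn2b held in all 17 alternatives. The 16 named separated regions kept their direction in every alternative run. They were selected for 1 direction in 4 of 4 pairs of these same lines, so this was largely fixed in advance and is no support.

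Replicate numbers did not pair the libraries (correlations of deviations from -0.0499 to 0.0046 between pairs of lines). A replicate block in the pairs of lines moved no count of calls over 1.5 times. Depth limits the weak regions most, and counting error alone is covered by counts per library. The filter of a mean of 50 counts could give no value for regions below it.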
